A study of Danio rerio with 4 samples.

Results

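The NF-kB pathway and its inflammatory cytokines were followed through 8 genes in zebrafish liver: the inhibitor genes nfkbiaa, nfkbiab and tnfaip3, the subunit genes nfkb2, rel and rela, and the cytokine genes il1b and tnfa. Members were all probes whose gene symbol in the platform's annotation is one of these names. Of the 8 genes 7 were represented, by 12 of 43603 probes, and tnfaip3 was not analysed here. The genes tested numbered 15554 in all.

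The study compared livers of zebrafish under 5 µM cadmium with livers of controls at 0 µM, both at day 4. Each group held 2 RNAs, replicates 2 and 3 of the control and replicates 1 and 2 of the cadmium treatment. The labels name no strain, sex or age and do not say how many fish an RNA came from, and the dose unit is that of the design text (the source names write another unit beside the same number). The 4 RNAs were hybridised in a closed loop of 4 two-colour Agilent arrays, each RNA once in Cy5 and once in Cy3, so that every array set 1 cadmium RNA against 1 control RNA. Arrays 1 and 2 carried cadmium replicate 1 (against control replicate 2 and control replicate 3), and arrays 3 and 4 carried cadmium replicate 2 (against control replicate 3 and control replicate 2).

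NF-kB is a family of dimeric transcription factors that switch on cytokine, chemokine and survival genes when a cell senses microbial products, tumour necrosis factor or interleukin 1. In the resting cell IkB proteins hold the dimers in the cytoplasm, and on stimulation a kinase complex marks IkB for destruction and the dimers enter the nucleus. The gene of IkB alpha is itself an NF-kB target, which closes a negative feedback loop known in mammals. Zebrafish carry a pair of IkB alpha genes, nfkbiaa and nfkbiab.

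Values are deposited ratios, read as log2 and turned to cadmium over control, so that a negative number means less signal in cadmium. The deposited ratio was read as Cy5 over Cy3, which is an assumption and is not stated. It was not checked here against genes known to respond to cadmium. Under the opposite reading every log2 ratio and log2 difference below would change sign. Ratios carry no signal level: whether a probe lay above background is unknown here, levels of different genes cannot be compared, and the tissue label could not be checked against hepatocyte levels. The SD over all probes was 0.198 and 0.230 on arrays 1 and 2 and 0.388 and 0.353 on arrays 3 and 4, so the arrays with cadmium replicate 2 were the wider ones. Arrays 1 and 3, which share no RNA, correlated at -0.043 over all probes, and arrays 2 and 4, which also share none, at -0.22. Over all probes the ratios thus did not repeat between these independent pairs of RNAs. In bulk RNA, fewer cells of a type and less RNA per cell cannot be told apart.

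The data show lower signal of both IkB alpha genes in both cadmium RNAs, at 0.537 (nfkbiaa) and 0.557 (nfkbiab) of the control level. The subunit gene nfkb2 had a smaller difference in the same direction, rel a still smaller one (-0.18) with overlapping groups, and rela, il1b and tnfa lay between -0.060 and 0.082. None of these differences passed the test. In limma, with the RNA as unit and adjustment over every feature measured, 0 of 43603 probes (0%) and 0 of 15554 genes (0%) had an adjusted p under 0.05, while 662 probes (1.52%) and 314 genes (2.02%) had an unadjusted p under 0.05. Of those probes 326 were lower in cadmium (0.748%), and they held all 4 probes of the IkB alpha genes and no other member probe.

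The probe of nfkbiaa (A_15_P163066, Entrez Gene 406463) read -0.95 on array 1, -0.63 on array 2, -0.72 on array 3 and -1.28 on array 4. Array 4, which paired cadmium replicate 2 with control replicate 2, gave the lowest ratio and array 2 the one nearest to 0, with every array below 0. Its log2 difference was -0.90 ± 0.19 (moderated SE, 2 RNAs per group), with a 95% interval from -1.41 to -0.39, an unadjusted p of 0.00772 and an adjusted p of 1.00 in the limma fit over probes. Solving the loop put the 4 RNAs at 0.67 (control replicate 2), 0.23 (control replicate 3), -0.34 (cadmium replicate 1) and -0.55 (cadmium replicate 2) relative to their mean. Both cadmium RNAs thus lay below both controls, and the gap between groups exceeded the distance between the controls (0.44) and between the cadmium RNAs (0.21), given here by size.

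For nfkbiab (Entrez Gene 323099) there were 3 probes, each below 0 on every array. The first (A_15_P105556) read -0.71, -0.46, -1.15 and -1.41 on arrays 1 to 4. The second (A_15_P169706) read -0.72, -0.42, -1.21 and -0.95. The third (A_15_P211791) read -0.74, -0.56, -1.02 and -0.80. All 3 probes were nearest to 0 on array 2, and both arrays with cadmium replicate 2 read lower than both with cadmium replicate 1. The probes agreed closely on array 1, where they spanned 0.022, and least on array 4, where they spanned 0.61. Over the 1220 genes with 3 probes the median span was 0.232 on array 1 and 0.332 on array 4. Of these 1220 genes, 11 (0.902%) had all 3 probes below 0 on all 4 arrays, and 5 (0.410%) also had each probe at -0.5 or lower, nfkbiab among them.

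The log2 difference of the nfkbiab probes was -0.93 ± 0.27, -0.82 ± 0.19 and -0.78 ± 0.12 (SE, 2 RNAs per group), with unadjusted p of 0.0235, 0.0121 and 0.00250 in the limma fit. As the mean over probes the gene was at -0.85 ± 0.19, with a 95% interval from -1.39 to -0.30 and an adjusted p of 1.00. The controls were close together, at 0.46 and 0.38 relative to the mean of the 4 RNAs, while the cadmium RNAs were apart, at -0.18 for replicate 1 and -0.67 for replicate 2. Without cadmium replicate 2 the first probe was at -0.59 and the gene at -0.60.

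**Figure D1:**
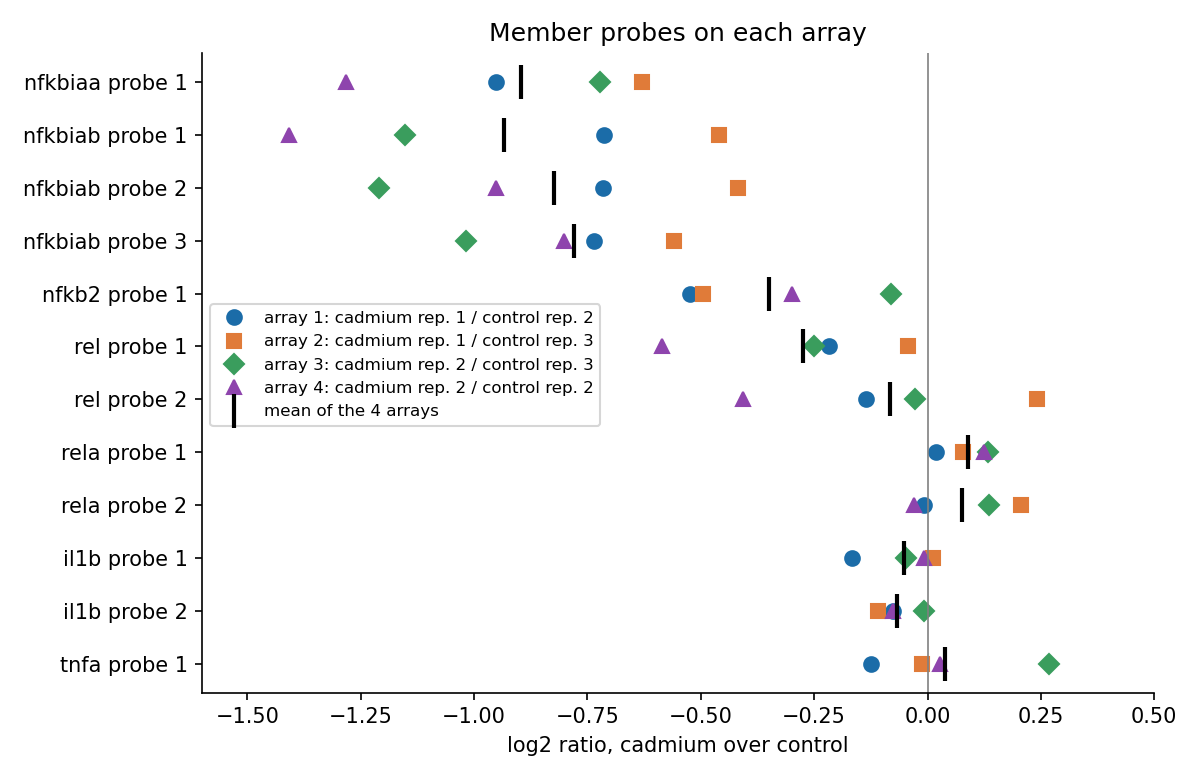
Log2 ratio of cadmium over control (x axis) for the 12 member probes (rows) on each of the 4 arrays (symbols), with the mean of the 4 arrays as a black bar. The 4 probes of nfkbiaa and nfkbiab lie between -1.41 and -0.42 on every array, and the probes of rela, il1b and tnfa lie around 0.

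The difference between the IkB alpha genes changed its sign with the array. As gene values, nfkbiab minus nfkbiaa was 0.23, 0.15, -0.40 and 0.23 on arrays 1 to 4. On array 3 alone nfkbiab was the lower of the pair. With 2 RNAs per group an exact permutation test of a single value cannot go below p = 0.333, so none was used for this pair.

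Read against all features, the IkB alpha genes lay far out on the lower side. Ranked by log2 difference, nfkbiaa was at place 34 and nfkbiab at place 42 from the lowest of 15554 genes. A mean of -0.5 or lower with all 4 arrays below 0 was seen in 168 genes (1.08%) and 329 probes (0.755%), and these held 2 of the 7 member genes and 4 of the 12 member probes. All 4 arrays were below 0 for 7 of the 12 member probes against 6.82% of all probes, and for 4 of the 7 member genes (nfkbiaa, nfkbiab, nfkb2 and il1b) against 6.9% of all genes. A mean below 0 was seen in 9 of the 12 member probes against 48.3% of all probes. Both cadmium RNAs lay below both controls for 7 member probes against 10.6% of all probes and for 4 member genes against 10.2% of all genes, and above both controls for 1 member probe (10.3%) and 1 member gene, rela (11.7%). These members were chosen with earlier results known, so the counts are a description.

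**Figure D2:**
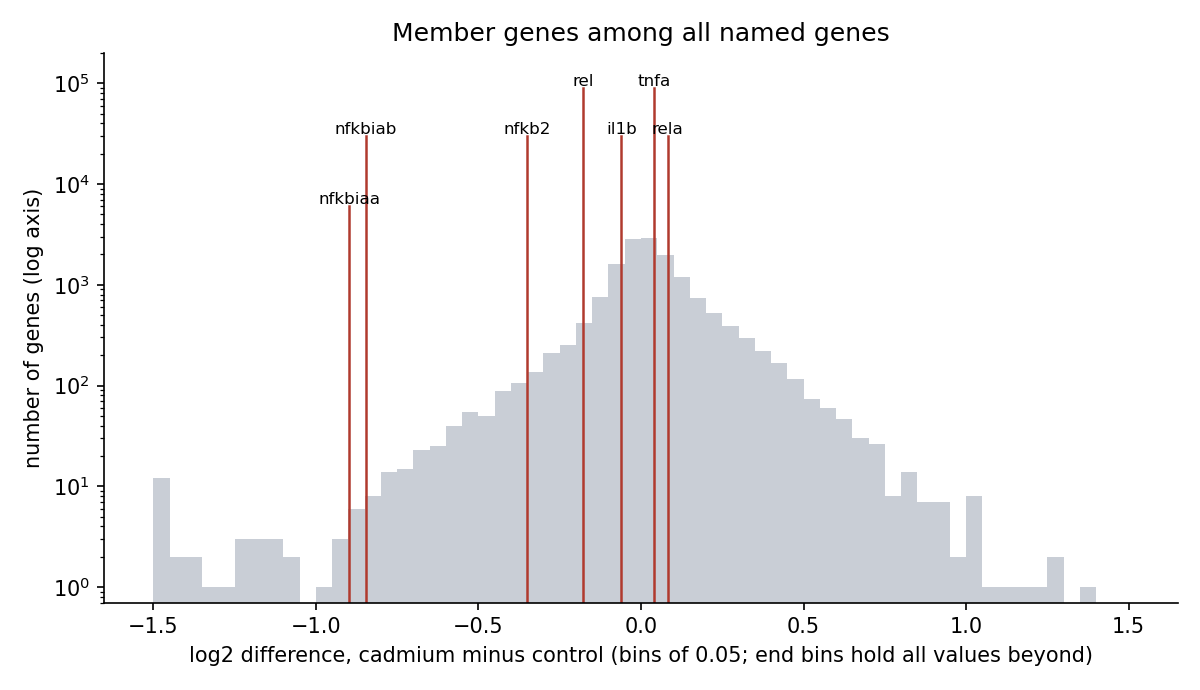
Number of genes (log axis) by log2 difference between cadmium and control in bins of 0.05, with the 7 member genes as red lines. The lines of nfkbiaa (-0.90) and nfkbiab (-0.85) stand in the lower tail, nfkb2 (-0.35) stands between, rel stands at -0.18, and rela, il1b and tnfa stand in the centre.

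Among the subunit genes, nfkb2 encodes the p100 precursor of the p52 subunit, which serves the non-canonical branch of the pathway. Its probe (A_15_P112335, Entrez Gene 415100) read -0.52, -0.50, -0.081 and -0.30 on arrays 1 to 4. Both readings of cadmium replicate 1 were lower than both of cadmium replicate 2, the reverse of nfkbiab. The log2 difference was -0.35 ± 0.14 (SE, 2 RNAs per group), with a 95% interval from -0.74 to 0.038 and an unadjusted p of 0.0667 in limma. The RNAs stood at 0.24 and 0.11 in the controls, -0.33 in cadmium replicate 1 and -0.015 in cadmium replicate 2, so the groups did not overlap, as for 10.2% of genes in this direction. This value leaned on 1 RNA, since without cadmium replicate 1 it was -0.19.

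The gene rel encodes c-Rel, a transactivating subunit of lymphoid and myeloid cells in mammals. Its first probe (A_15_P103186, Entrez Gene 415101) read -0.22, -0.044, -0.25 and -0.59 on arrays 1 to 4. Its second probe (A_15_P150281) read -0.14, 0.24, -0.028 and -0.41. Array 4 was the lowest for both probes and array 2 the highest, where the second probe was above 0. The log2 difference of the gene was -0.18 ± 0.17, with a 95% interval from -0.66 to 0.30. The groups overlapped: control replicate 3 (-0.069) lay below cadmium replicate 1 (0.050), and control replicate 2 (0.25) lay highest. Without control replicate 2 the gene was at -0.020, without cadmium replicate 2 at -0.039, without control replicate 3 at -0.34 and without cadmium replicate 1 at -0.32.

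For rela, which encodes p65, the main transactivating subunit of the canonical pathway, the first probe (A_15_P120350, Entrez Gene 415099) read 0.019, 0.078, 0.13 and 0.13. The second (A_15_P163741) read -0.0089, 0.21, 0.14 and -0.030. The first probe was above 0 on every array, as were 6.38% of all probes, and the second on arrays 2 and 3. Their mean was above 0 on all 4 arrays, as it was for 7.99% of genes. The log2 difference of 0.082 ± 0.090 (95% interval from -0.17 to 0.33) corresponds to an interval from 0.889 to 1.26 of the control level. Without control replicate 3 the gene was at 0.026 and without control replicate 2 at 0.14. The rela value exceeded that of rel on all 4 arrays, by 0.18, 0.043, 0.27 and 0.54.

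The cytokine genes lay closest to 0. Interleukin 1 beta, the product of il1b, is a fever and leukocyte-recruiting cytokine of macrophages. Its first probe (A_15_P120176, Entrez Gene 405770) read -0.17, 0.011, -0.048 and -0.0073, and its second (A_15_P158551) read -0.077, -0.11, -0.0072 and -0.075. The largest of these readings in size was on array 1, and the only one above 0 was that of the first probe on array 2. The log2 difference of the gene was -0.060 ± 0.084, with a 95% interval from -0.29 to 0.17, or 0.815 to 1.13 of the control level. It was at -0.035 without cadmium replicate 1 and at -0.038 without control replicate 2. Both cadmium RNAs lay below both controls, but control replicate 3 (0.0084) and cadmium replicate 2 (-0.0045) nearly met. For the first probe alone the groups overlapped.

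Tumour necrosis factor alpha is encoded by tnfa, whose single probe (A_15_P103303, Entrez Gene 405785) read -0.13, -0.012, 0.27 and 0.026. It was below 0 on both arrays of cadmium replicate 1 and above 0 on both of cadmium replicate 2. The log2 difference was 0.039 ± 0.128 in the gene fit, with a 95% interval from -0.32 to 0.40. Its sign turned without control replicate 3 (-0.049) or without cadmium replicate 2 (-0.069). Because signal levels are unknown, a ratio near 0 for il1b or tnfa could not be told apart from a transcript below detection in all RNAs.

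**Figure D3:**
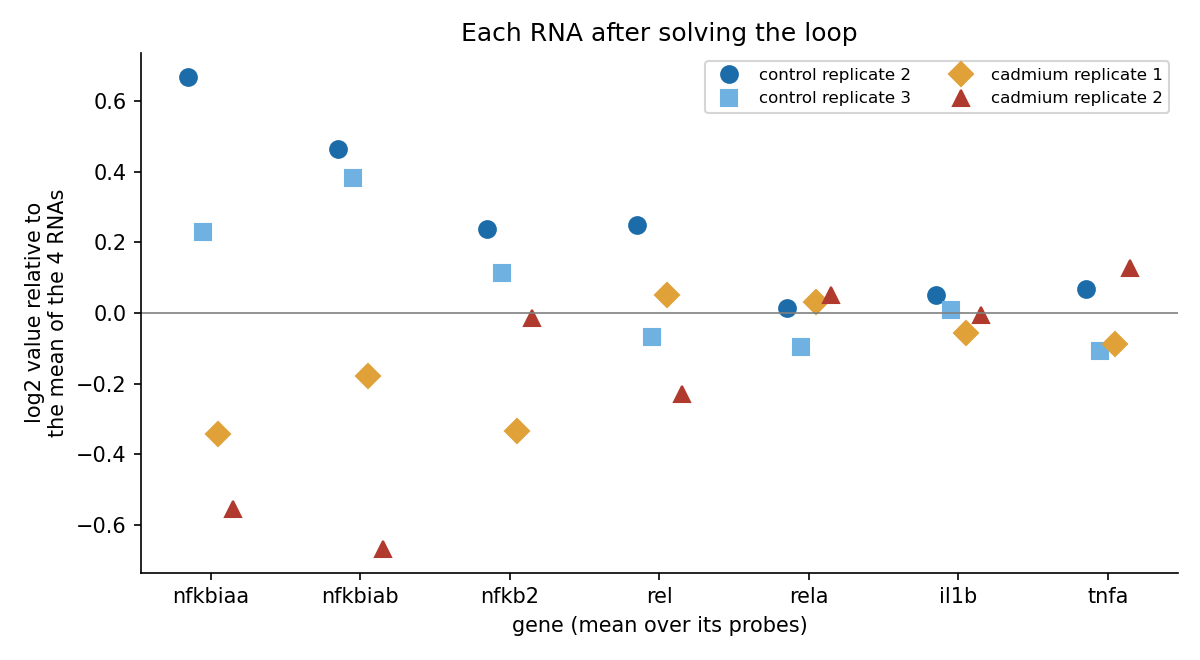
Log2 value of each of the 4 RNAs relative to their mean (y axis) for the 7 member genes (x axis), after the dye effect was solved. Both cadmium RNAs lie below both controls for nfkbiaa, nfkbiab, nfkb2 and il1b, with the widest gaps for the first 2 genes. For il1b the groups nearly meet, with control replicate 3 at 0.0084 and cadmium replicate 2 at -0.0045.

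Dye effects were small beside the IkB alpha differences. The dye term was -0.060 for nfkbiaa, 0.079 for nfkbiab and between -0.047 and 0.015 for the other members, and its SD over all genes was 0.0888. Leaving out 1 RNA at a time, nfkbiaa ranged from -1.12 to -0.68 and nfkbiab from -1.09 to -0.60. Without cadmium replicate 2, nfkbiaa was at -0.79 and nfkbiab at -0.60, and neither was called. Without cadmium replicate 1, cadmium replicate 2 alone stands for the treatment and is assumed to vary like the controls. Its ovary marker genes had a median of 1.33, against -0.73 in cadmium replicate 1. Only in the fit without cadmium replicate 1 were the IkB alpha genes called, nfkbiaa at -1.003 and nfkbiab at -1.09. In that fit 1456 of all genes (9.36%) were called, 386 of them (2.48%) lower, and no other member was. At the probe level it called the 4 IkB alpha probes among 2523 of all probes (5.79%).

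**Figure D4:**
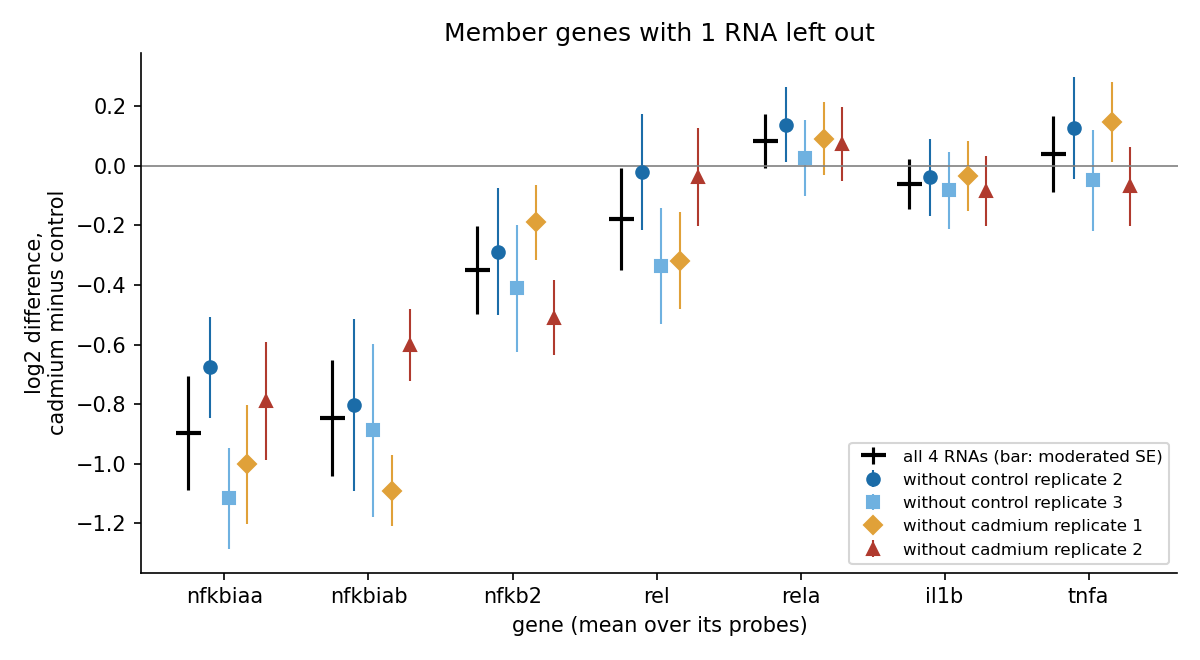
Log2 difference between cadmium and control (y axis) of the 7 member genes with all 4 RNAs and with each RNA left out, with moderated SE as bars. All values of nfkbiaa and nfkbiab lie between -1.12 and -0.60, those of nfkb2 between -0.51 and -0.19, and those of tnfa on both sides of 0.

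The wider pathway was read from 6 lists ordered by role. Over all genes 43.1% were below 0 and the median log2 difference was 0.017, and 0 genes of any list passed the test with all 4 RNAs. The non-member genes named by rule, up to 4 from each list, had the largest moderated t in the fit of these same RNAs. Without cadmium replicate 1, hamp was at -2.67, junba at -1.11, junbb at -1.40 and ccl19a.1 at -1.70. Without cadmium replicate 2 they were at -2.98, -1.31, -0.96 and -1.09 (in the same order). With arrays as units and no dye term hamp was called, which is no independent check of a gene picked by its t. Among inhibitors of the pathway 10 of 14 measured genes were lower and 4 higher, with a median of -0.068. In 6 of the 14, all 4 arrays were below 0, against 6.9% of all genes. Besides the members these were nfkbib, nfkbie, pdlim2 and irak3. Without nfkbiaa and nfkbiab, 8 of 12 inhibitor genes were lower and 4 higher, with a median of -0.053. Of these 12 genes, 4 were below 0 on all 4 arrays.

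The gene nfkbib encodes IkB beta, and it was at -0.26 ± 0.08 (SE, 2 RNAs per group), reading -0.20, -0.25, -0.24 and -0.35 on arrays 1 to 4. The arrays differed little, and its unadjusted p was 0.0373 in limma (adjusted p = 1.00). IkB epsilon, the product of nfkbie, was at -0.084 ± 0.082, with readings between -0.12 and -0.016. All 4 measured IkB genes of the classical kind, singled out after their values were seen, were therefore below 0 on all 4 arrays. So were 7 of their 8 probes, against 6.9% of all genes and 6.82% of all probes. The non-member genes were at a smaller size than the IkB alpha genes.

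Further inhibitors on the lower side were irak3, a kinase-like brake on Toll-like receptor signalling, and pdlim2, an adaptor that in mammals helps remove nuclear p65. The value of irak3 was -0.50 ± 0.19, with -0.48 and -0.097 on the arrays of cadmium replicate 1 and -0.72 and -0.71 on those of cadmium replicate 2. Without cadmium replicate 2 it was -0.29. For pdlim2 the log2 difference was -0.25 ± 0.09, from -0.44 to -0.039 on single arrays. The atypical IkB gene bcl3 and the A20-binding partner gene tnip1, chosen after their values were seen, were at -0.044 and -0.077. Of the 4 higher genes of this list, otulina, chosen in the same way, was at 0.13. The highest value of the list was 0.14.

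With all 4 RNAs, genes upstream of NF-kB centred on 0, and the side that held more of them changed with the cadmium RNA left out. Of 23 receptor genes 14 were lower and 9 higher, with a median of -0.0059. The 4 with the largest moderated t were il1rapl1a, an interleukin 1 receptor accessory-like gene (0.14), the tumour necrosis factor receptor gene tnfrsf1a (-0.20, with its probes at -0.50 and 0.10), the Toll-like receptor gene tlr2 (-0.11) and the death receptor gene hdr (0.30). With 1 RNA left out, hdr ranged from -0.10 (without cadmium replicate 2) to 0.70 (without cadmium replicate 1), and tnfrsf1a from -0.35 (without control replicate 3) to -0.045 (without control replicate 2). For il1rapl1a the values were 0.070 without cadmium replicate 2 and 0.21 without cadmium replicate 1. Of 30 adaptors and kinases 15 were lower and 15 higher, with a median of 0.0013. They were led by tab1, a partner of the kinase TAK1 (-0.31), map3k8 (-0.16), the ubiquitin-conjugating enzyme gene ube2na (0.21) and card9 (-0.14). With 1 RNA left out, tab1 ranged from -0.45 (without cadmium replicate 1) to -0.16 (without cadmium replicate 2), map3k8 from -0.21 to -0.096 (in the same order) and ube2na from 0.38 to 0.036 (in the same order), while card9 ranged from -0.27 (without control replicate 2) to -0.011 (without control replicate 3). The IkB kinase genes chuk and ikbkg and the adaptor gene myd88, picked after their values were seen, were at 0.051, -0.0075 and -0.0063.

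In the subunit list relb, the partner of p52 in the non-canonical branch, was the 1 measured gene besides the members. It was at 0.12 ± 0.08, with -0.0040 on array 1 and 0.26, 0.047 and 0.17 on the others. Its sign was thus opposite to that of nfkb2, and both intervals included 0.

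Among 37 cytokine and chemokine genes 18 were lower and 19 higher, with a median of 0.0050. On all 4 arrays 6 of them were below 0, against 6.9% of all genes. The chemokine gene ccl19a.1 was at -1.39 ± 0.40 (SE, 2 RNAs per group), reading -0.69, -1.48, -2.22 and -1.18 on arrays 1 to 4, with an unadjusted p of 0.0263 (limma). A second chemokine gene, ccl25b, read -0.25 and -0.25 with cadmium replicate 1 and -0.69 and -0.999 with cadmium replicate 2. Its log2 difference was -0.55, and -0.25 without cadmium replicate 2 against -0.84 without cadmium replicate 1. The death ligand genes tnfsf10l and tnfsf10 were at -0.18 and -0.19. Apart from ccl19a.1 and ccl25b, chosen by rule, the cytokine list spanned -0.27 to 0.20.

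Of 47 genes listed as NF-kB targets 28 were lower and 19 higher, with a median of -0.020. All 4 arrays were below 0 for 11 of them, against 6.9% of all genes, and above 0 for 1, against 7.99% of all genes. The largest moderated t belonged to the hepcidin gene hamp (-2.82 ± 0.23), the AP-1 genes junba (-1.21 ± 0.12) and junbb (-1.18 ± 0.29), and sod2, the mitochondrial superoxide dismutase gene (0.44 ± 0.09). These genes also answer to other pathways, so the list is not particular to NF-kB. The 11 genes below 0 on all 4 arrays were hamp, junba, junbb, the member nfkb2, the MYC gene mycb (-0.85), the interferon regulatory factor gene irf1b (-0.78), the heme oxygenase gene hmox1a (-0.74), the proteasome activator gene psme2 (-0.63), the complement gene c3a.1 (-0.49), the phagocyte oxidase gene ncf1 (-0.20) and tnfaip8l2b (-0.067). Some inflammatory effectors of the same list were picked after their values were seen, and others are not named here. The adhesion molecule gene vcam1b was at -0.47, with overlapping groups, and the serum amyloid gene saa at -0.13. The gelatinase gene mmp9 (0.057), the cyclooxygenase genes ptgs2a and ptgs2b (0.013 and 0.0086) and the nitric oxide synthase gene nos2a (-0.0019) lay near 0. Values this small carry no direction.

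**Figure D5:**
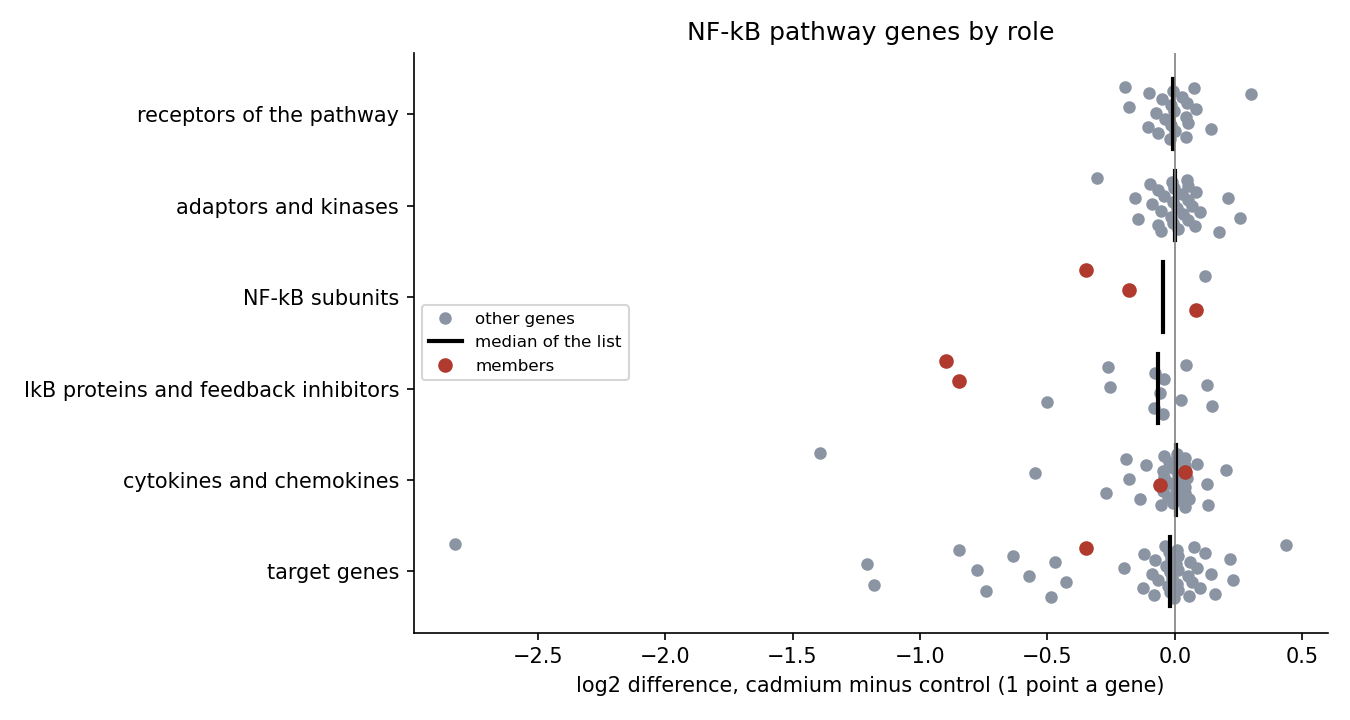
Log2 difference between cadmium and control (x axis) of every measured gene in 6 lists by role (rows), with members in red and each list's median as a black line. The medians lie between -0.068 and 0.0050, and the IkB alpha genes stand apart from the rest of the inhibitor list.

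Markers of other cell types were read beside these results, and 0 of them passed the test. Of 18 leukocyte markers 17 were lower, against 43.1% of all genes, and 3 were below 0 on all 4 arrays, against 6.9%. They had a median of -0.062 and a range from -0.56 (lcp1) to 0.060. The marker ncf1 is also in the target list and was counted in both. The leukocyte median by RNA was 0.029 and 0.036 in the controls, 0.021 in cadmium replicate 1 and -0.082 in cadmium replicate 2. All 15 ovary markers were higher, with medians of -0.38 and -0.16 in the controls, -0.73 in cadmium replicate 1 and 1.33 in cadmium replicate 2. Hepatocyte markers were lower in 5 of 11 (median 0.035) and endothelial and stellate markers in 7 of 8 (-0.15). Red cell markers were lower in 2 of 6 (0.037) and pancreas markers in 2 of 11 (0.34). For pancreas the control RNAs lay far apart, with medians of 0.72 (replicate 2) and -0.92 (replicate 3). Both cadmium RNAs fell between them, at 0.014 (replicate 1) and 0.22 (replicate 2). For all 11 pancreas markers the groups overlapped, and 0 were above 0 on all 4 arrays. The pancreas median of 0.34 therefore does not set cadmium apart from control. Without cadmium replicate 2 nfkbiaa was at -0.79 and nfkbiab at -0.60, and without cadmium replicate 1 they were at -1.003 and -1.09. The part of these cell types in the results was not tested.

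The genes most like nfkbiaa over the 4 arrays, by Euclidean distance between the gene values, were smarcd1 (0.243), nots (0.380), enpep (0.467), irf2bp2b (0.477) and plin2 (0.485). The measure rests on 4 ratios that share RNAs, and 1 gene with a clone or locus name was passed over. The closest, smarcd1, a subunit gene of the SWI/SNF chromatin remodelling complex, read -0.81, -0.51, -0.83 and -1.17 on arrays 1 to 4, the same order of arrays as nfkbiaa save that array 3 was lower than array 1. Among these 15554 genes nfkbiab was at place 9, at a distance of 0.540.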

How the data were processed

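Liver RNA was measured on 4 two-colour arrays. The deposited table holds a log2 ratio between the dyes for each of 43603 probes on each array, with 0 values missing. Per the submitters' processing notes limma was used, and per the labels Agilent's labelling protocol was version 5.7. How the authors corrected background, normalized or filtered is not given in the sources used here. Base 2 was inferred from the largest size of 6.14, which alone does not settle the base, and column medians near 0 show centring by an unknown method. Values given as a share of the control level rest on base 2. Arrays of one dye orientation (1 with 3, and 2 with 4), which share no RNA, correlated at -0.043 and -0.22 across probes.

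Each probe's 4 ratios were solved for 4 RNA values, relative to their mean, and 1 dye effect. Cadmium and control RNAs were compared with lmFit and eBayes (limma 3.58.1, R 4.3.3), as a two-sided test at 0.05 after Benjamini-Hochberg adjustment over all features. The fit had 2 residual degrees of freedom and a prior of 2.17 (probes) or 1.91 (genes). Probes of one gene were averaged. Of the probes 23717 carried 1 symbol, 0 several, and 19886 are unnamed here. Of 12 member probes all were found by symbol. P-values reflect only how far these RNAs differ, whose origin from 1 fish or a pool is not given, and the number of RNAs limits the precision.

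The members, the pathway lists and the marker lists (hepatocyte, leukocyte, red cell, ovary, pancreas, endothelial and stellate) were chosen with earlier results of these data known. Named were all member probes, from each pathway list the 4 non-member genes of largest moderated t, any gene past the threshold, and the 5 genes nearest to the member with the largest moderated t. Other genes are named as chosen after their values were seen. Alternatives were array scaling, quantile normalization, arrays as units, a variance filter, the median over probes and each RNA left out.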

Additional observations from a re-analysis of the deposited data

How the results depend on the processing

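Arrays as units, with or without a dye term, give the same log2 differences by construction. The median over probes equals the mean for members with 1 or 2 probes, so these alternatives could not turn those signs. For nfkbiab, with 3 probes, the median over probes gave -0.82. The direction of the 7 member genes held under array scaling and quantile normalization, and the number of member genes below 0 was 5 in each of these. With 1 RNA left out that number lay between 5 and 6, and the number of probes past the threshold between 0 and 2523, of genes between 0 and 1456, both highest without cadmium replicate 1. Arrays as units without a dye term, which treat arrays that share an RNA as independent, called 3 probes and 2 genes, hamp among the genes and no member. With 1 RNA left out, signs turned for the second rel probe (-0.27 to 0.11, above 0 without control replicate 2 or cadmium replicate 2), the second rela probe (-0.020 to 0.17, below 0 without control replicate 3), tnfa (-0.069 to 0.15, below 0 without control replicate 3 or cadmium replicate 2) and hdr (-0.10 to 0.70, below 0 without cadmium replicate 2). The cause was not tested. The counts below 0 in the pathway lists stayed within 1.5 times their value in every alternative run, but the larger side changed in some lists. Without cadmium replicate 1 and without cadmium replicate 2, in that order, 11 and 21 of 30 adaptors and kinases were lower. The same counts were 15 and 10 of 23 receptors, 23 and 17 of 37 cytokines and chemokines, and 26 and 35 of 47 targets. For inhibitors they were 9 and 11 of 14, and for subunits 2 and 2 of 4. The counts were not recomputed under the variance filter, which removed rela, il1b and 3 of their probes. No paired analysis was possible because the groups share 1 replicate number. No filter on dim probes could be run, since ratios hold no signal.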

Other observations

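Some genes of the pathway lists, picked after their values were seen, differed more between the cadmium RNAs than between the groups. The stress gene gadd45ba read 0.31 and 0.046 on the arrays of cadmium replicate 1 and -1.28 and -1.37 on those of cadmium replicate 2. The immunoproteasome subunit gene psmb9a read 0.16 and -0.23 against -0.98 and -0.66. The adhesion molecule gene vcam1b read 0.0045 and -0.097 against -1.01 and -0.78. The receptor gene tlr3, which senses double-stranded RNA, read 0.54 and -0.0084 against -0.86 and -0.39. Other genes of the lists went the other way. The adaptor gene tradd read -0.17 and -0.23 against 0.63 and 0.80, and the cytokine gene csf3b -0.21 and -0.18 against 0.45 and 0.29. The share of all genes with such a difference was not computed. For all the genes named here the groups overlapped, and the difference between the cadmium RNAs has no replicate check.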
